A study of Mus musculus with 3 samples.

Results

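The 10 genes Atf4, Atf5, Asns, Trib3, Psat1, Phgdh, Chac1, Ddit4, Sesn2 and Nupr1 belong to the ATF4 and amino acid stress programme, and their expression was followed in 3 mouse livers. They were taken by name, and every non-control probe whose RefSeq accession belonged to 1 of them was used, which gave 13 probes for 10 of the 20266 named genes with a probe on the array. The livers came from c57BL6/J mice that received a plasmid for human YAP by hydrodynamic tail vein injection, coding for the wild type (WT), the mutant 1SA or the mutant 2SA, and RNA was taken after 2 days. YAP is a transcriptional coactivator restrained by the Hippo pathway, and the study used both mutants as active forms. Mice injected in this way were males aged 8 weeks. The plasmid drove YAP from an albumin promoter with an AFP enhancer, so the transgene was meant for hepatocytes, and the injection reaches only a part of them. All 3 livers had also undergone the injection itself, which injures liver cells, and no uninjected liver was analysed here. Each group was 1 array, and whether its RNA came from 1 mouse or a pool was not stated. No difference below therefore has a replicate check or a p-value, and a difference between constructs cannot be told apart from a difference between livers.

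When amino acids run short or proteins misfold, kinases phosphorylate the translation factor eIF2alpha, general translation slows, and the ATF4 mRNA is translated more. ATF4, a bZIP transcription factor, then switches on genes for amino acid synthesis, transport and tRNA charging, together with brakes on growth. Because much of this control acts on translation, the Atf4 mRNA is only 1 layer of it, and the target mRNAs are commonly read beside it. In liver these genes respond to diet, protein load and injury.

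ATF4 binds as a dimer with C/EBP family proteins at a composite site called the C/EBP-ATF response element, so the promoters of the 10 genes were searched for the letters TGATGNAAN on both strands. RefSeq promoter windows (build GRCm38.p6, 250 bases before to 50 after the start) were found for 10 of the 10 genes. The letters were present in 4 of them, Asns, Chac1, Nupr1 and Trib3, against 4.50% of 27025 genes with a window. The stretches are shown because they mark a feature that these 4 genes share, with the matched letters in capitals, 5′ to 3′ on the strand of the gene.
Asns: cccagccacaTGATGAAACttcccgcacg
Chac1: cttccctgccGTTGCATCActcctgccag
Nupr1: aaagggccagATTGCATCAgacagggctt
Trib3: ttagctcaggTTTACATCAgccgggcggg
The Asns stretch lies at chr6:7693214-7693242 on the minus strand, with the match beginning 23 bases before the start site. The Chac1 stretch lies at chr2:119351038-119351066 on the plus strand, 194 bases before the start, and the Nupr1 stretch at chr7:126625563-126625591 on the minus strand, 111 bases before it. The Trib3 stretch lies at chr2:152344029-152344057 on the minus strand, where the match begins at base 14 of the transcribed part. In Chac1, Nupr1 and Trib3 the match is on the opposite strand and reads as its reverse complement here. The shorter form TGATGCA, which overlaps the matches in Chac1 and Nupr1, was found in those 2 genes, against 3.63% of all genes. A match is a description of letters and not of binding. The genes were chosen as part of the ATF4 programme and the letters as the known ATF4 site, so these shares are no test.

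Signals were compared as log2 intensity with the 75th percentile of each array subtracted, an intensity of 291 for WT, 276 for 1SA and 319 for 2SA. Intensities are given unscaled beside the normalised differences, and since the 2SA array was the brightest, a gene can have its highest intensity there and not its highest normalised level. Of the 13 probes, 12 were well above background on all 3 arrays, including at least 1 for each gene. Each of the 13 was read from 1 spot per array. Probes with repeated spots on the same arrays gave the only error available. For a probe of median spot SD, 95% of differences due to spots alone lie within a limit set by signal. This spot limit was 0.15 on the log2 scale at signals above 1000, 0.19 between 200 and 1000, 0.28 between 50 and 200, and 0.57 below 50. Probes with a larger spot SD scatter beyond it more often, and these limits cover nothing of the spread between mice. Liver identity was as labelled, since all 9 hepatocyte markers were measured, with a median difference from WT of 0.09 in 1SA and -0.12 in 2SA.

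The 10 genes did not share a direction. Chac1, Ddit4 and Atf4 were highest in the 1SA liver, whereas Nupr1, Atf5, Psat1, Trib3 and Phgdh were lowest there, and Asns was lowest in the 2SA liver. Of all genes, 38.5% were highest and 34.4% lowest in the 1SA liver. Sesn2 was nearly level on all 3 arrays. Against WT, 1 gene (Chac1) was at least 2-fold higher and 1 (Nupr1) at least 2-fold lower in 1SA, where 0.727% and 1.14% of 13626 genes were so (1.86% in either direction). In 2SA no member was 2-fold above WT (1.12% of all genes) or below it (0.543%), and 1.67% of all genes were in either direction. Between the mutants, Nupr1 and Psat1 were at least 2-fold higher in 2SA than in 1SA, a direction and size shared by 2.47% of all genes, and none was 2-fold lower (1.12%, and 3.6% of all genes in either direction). At 1.5-fold, 3 of the 10 differed from WT in 1SA (7.75% of all genes), 1 in 2SA (6.8%) and 6 between the mutants (11.6%). With normexp background correction none of the 10 was 2-fold apart in any comparison. Of all genes, 0.712% were so with normexp in 1SA against WT, 0.638% in 2SA against WT and 1.5% between the mutants.

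**Figure D1:**
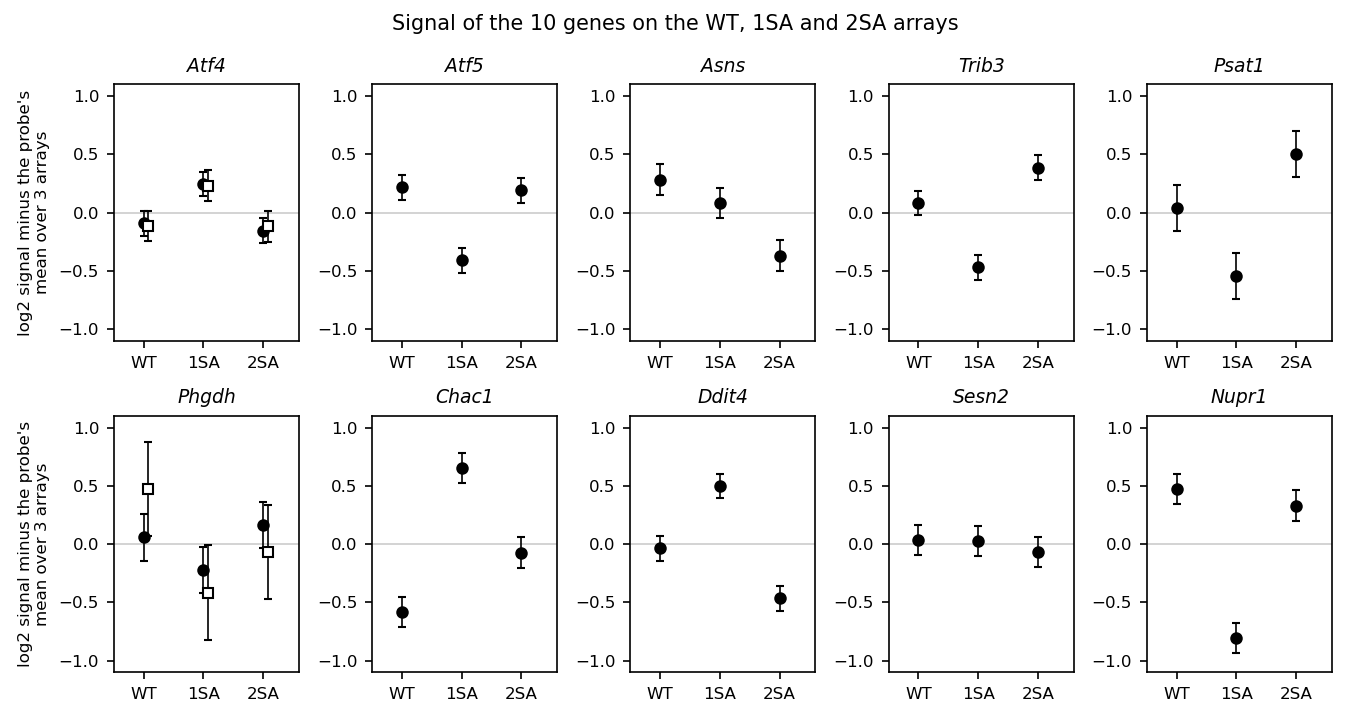
Normalised log2 signal of each gene on the WT, 1SA and 2SA arrays (x axis), shown as the difference from the probe's own mean over the 3 arrays (y axis). Filled circles are the brighter probe and open squares the dimmer probe of Atf4 and Phgdh, each 1 spot per array. Bars hold 95% of the scatter of spots for a probe of median spot SD at that signal. The 1SA array holds the lowest value of Nupr1, Atf5, Psat1, Trib3 and Phgdh and the highest of Chac1, Ddit4 and Atf4.

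Among the transcription regulators, Atf4 (NM_009716), the central activator, gave intensities of 13010.1 (WT), 15593 (1SA) and 13672 (2SA) by its brighter probe. Its dimmer probe read 399, 481 and 438. Both probes placed 1SA highest, with a difference from WT of 0.34 and 0.35, and both kept 2SA within the spot limit of WT, at -0.06 and -0.002. The Atf4 mRNA was thus about 1.26-fold higher in 1SA by the brighter probe, a difference that ranked 1112 from the top among 13626 genes.

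Atf5 (NM_030693), a related bZIP factor abundant in hepatocytes and also translated under eIF2alpha phosphorylation, went the other way. Its intensities were 22430 (WT), 13769 (1SA) and 24221 (2SA). The 1SA array stood apart at 1.54-fold below WT (-0.63), whereas 2SA and WT differed by -0.02, within the spot limit. In a whole liver, fewer cells of a type and less RNA per cell cannot be told apart, which holds for every gene here.

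Nupr1 (NM_019738), a small chromatin-associated stress protein, showed the widest range of the 10. Its intensities were 377 (WT), 147 (1SA) and 375 (2SA). The 1SA value was 2.43-fold below WT (-1.28), which ranked 54 from the bottom among all genes, and 2.20-fold below 2SA (1.14). The WT and 2SA arrays differed by -0.14, within the spot limit of 0.19.

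Trib3 (NM_175093), a pseudokinase induced by ATF4 and CHOP that feeds back on ATF4, read 2937 (WT), 1901 (1SA) and 3977 (2SA). All 3 values lay apart by more than the spot limit of 0.15. It was lower than WT in 1SA (-0.55), higher in 2SA (0.30) and 1.81-fold higher in 2SA than in 1SA (0.85).

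Among the enzymes, Asns (NM_012055), which makes asparagine and is the classical amino acid response gene, gave intensities of 933 (WT), 770.4 (1SA) and 652 (2SA). Its order differed from that of Trib3, with 2SA lowest. The difference from WT was -0.20 in 1SA, just beyond the spot limit of 0.19, and -0.65 in 2SA, which ranked 301 from the bottom among all genes. The 2SA value was also below 1SA (-0.45).

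Psat1 and Phgdh act in succession in serine synthesis, a pathway with little activity in adult liver, and both were dim. Psat1 (NM_001205339) read 116 (WT), 73.3 (1SA) and 175 (2SA) by its brighter probe. It was lower than WT in 1SA (-0.58), higher in 2SA (0.46) and 2.06-fold higher in 2SA than in 1SA (1.05), each beyond the spot limit of 0.28. The other Psat1 probe read 6.22, 7.56 and 14.7 and was well above background on 2SA only. Its bounds put 2SA at least 1.07-fold above WT and at least 1.24-fold above 1SA. Both bounds are smaller than the spot limit of 0.57 on the log2 scale at that signal. Phgdh (NM_016966) read 84.2 (WT), 65.7 (1SA) and 99.5 (2SA) by its brighter probe and 62.8, 32.1 and 47.4 by the dimmer. Both probes placed 1SA lowest. The difference of 1SA from WT was -0.28 by the brighter probe, at its spot limit, and -0.89 by the dimmer, where the limit was 0.57. For 2SA against WT the pair disagreed in sign, at 0.11 and -0.54, each within its limit.

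Chac1 (NM_026929), an enzyme that degrades glutathione and lies downstream of ATF4, lay furthest above WT of the 10 genes. Its intensities were 278 (WT), 621 (1SA) and 435 (2SA). Both mutants lay above WT, by 2.35-fold in 1SA (1.23) and 1.42-fold in 2SA (0.51), and 2SA lay below 1SA (-0.72). The 1SA difference ranked 53 from the top among 13626 genes and the 2SA difference 665. Chac1 was the only one of the 10 to lie above WT beyond the spot limit in both mutants.

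Ddit4, also known as REDD1, and Sesn2 both restrain the growth kinase complex mTORC1. Ddit4 (NM_029083) read 1934 (WT), 2652 (1SA) and 1575 (2SA). It was higher than WT in 1SA (0.53) and lower in 2SA (-0.43), a pattern opposite to that of Trib3 and Psat1. The 2SA value was 1.95-fold below 1SA (-0.96), which ranked 167 from the bottom among all genes. Sesn2 (NM_144907) read 787 (WT), 741 (1SA) and 805 (2SA). Its 3 normalised values differed by at most 0.10, inside the spot limit of 0.19, so no order was given.

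**Figure D2:**
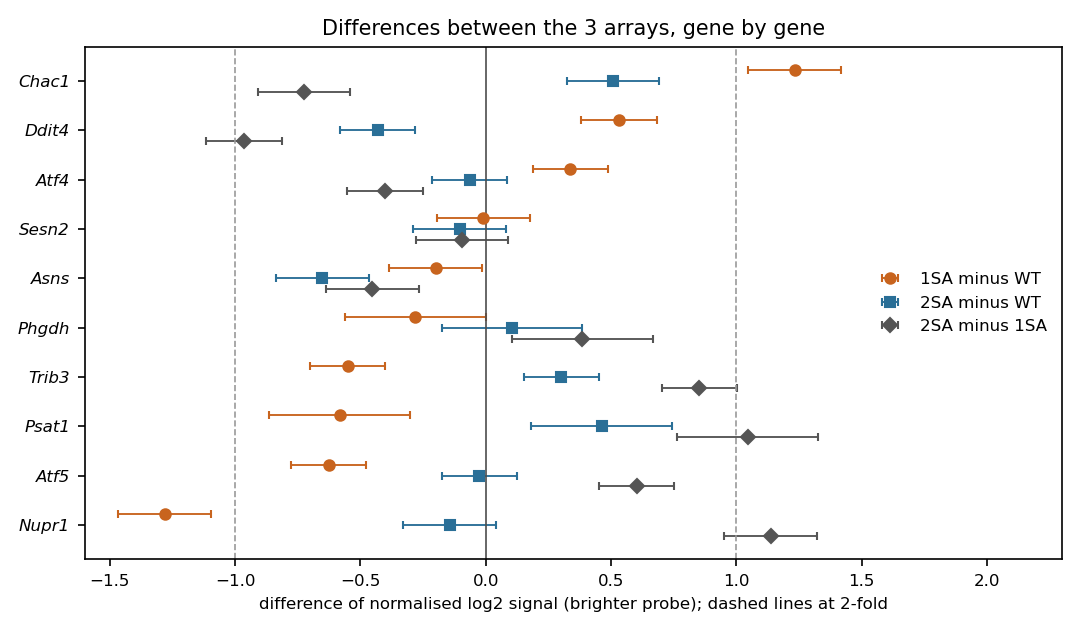
Differences of normalised log2 signal (x axis) for each of the 10 genes (y axis, sorted by 1SA minus WT) in 1SA against WT, 2SA against WT and 2SA against 1SA. Points are 1 array against 1 array by the brighter probe, and dashed lines mark 2-fold. Bars are the spot limit set from the median SD of repeated spots. For Trib3 and Psat1 the 1SA point lies left of 0 and the 2SA point right of it, and for Ddit4 the reverse.

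Counted together, 3 of the 10 genes lay above WT and 5 below WT in 1SA by more than the spot limit at their signal, where 33.7% of all genes lay beyond theirs in either direction. In 2SA 3 lay above and 2 below (33.7% of all genes beyond), and between the mutants 5 were higher and 4 lower in 2SA (44.2%). These counts rest on limits that hold no spread between mice. Their medians were -0.24 in 1SA against WT, -0.04 in 2SA against WT and 0.15 in 2SA against 1SA, beside -0.002, -0.03 and -0.03 for all genes. With a stricter filter on dim probes, which leaves out Psat1 and Phgdh, the median between the mutants was -0.25, the opposite sign, and in 1SA against WT it was -0.10. The SD of the 10 differences was 0.71 in 1SA against WT and 0.76 between the mutants, where it was 0.34 and 0.42 over all genes. For 2SA against WT the SDs were 0.37 and 0.33. Outside the interquartile range of all genes lay 9 of the 10 in 1SA against WT, 5 in 2SA against WT and 9 between the mutants, where 50% of all genes lie outside by definition. All comparisons share arrays pairwise, so they are not independent.

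The genes with the response element in their promoter window did not share a direction. Against WT, Chac1 was higher in 1SA (1.23) and Nupr1 (-1.28), Trib3 (-0.55) and Asns (-0.20) were lower. In 2SA, Chac1 (0.51) and Trib3 (0.30) were above WT and Asns (-0.65) was below it, while Nupr1 differed by less than the spot limit.

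The wider pathway was described with 12 lists of 130 genes, of which 121 were measured on all 3 arrays. At 1.5-fold, 1 of these genes was higher and 3 were lower in 1SA than in WT, where 3.08% and 4.67% of all genes were so. In 2SA 4 were higher and 6 lower (3.79% and 3.02% of all genes). In 2SA against 1SA 8 were higher and 8 lower (6.99% and 4.56%).

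Upstream of ATF4, the 14 genes for eIF2alpha kinases, eIF2 subunits and exchange factors and the phosphatase subunits had medians of 0.15 in 1SA and 0.01 in 2SA. None was 1.5-fold from WT in 1SA (7.75% of all genes). The widest range was that of Impact, which restrains the amino acid sensing kinase GCN2, with 827 (WT), 762 (1SA) and 589 (2SA). In 2SA its brighter probe lay at -0.63 from WT, its other probe at -0.02.

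The 8 bZIP partners and stress transcription factors had medians of -0.04 and -0.01. Jdp2, a repressor of the AP-1 family, varied most, at 125 (WT), 94.9 (1SA) and 192 (2SA), with a 2SA value 0.81 above that of 1SA. Ddit3, which encodes CHOP and was named after its values were seen, read 455, 272 and 529, with a difference of -0.67 in 1SA and 0.08 in 2SA.

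Enzymes of serine, glycine and one-carbon metabolism over 10 measured genes had medians of 0.27 (1SA) and 0.02 (2SA). Mthfd1l, a mitochondrial folate enzyme, was the only one 2-fold apart in any comparison, with 428 (WT), 306 (1SA) and 231 (2SA) and a difference of -1.03 in 2SA. Its second measured probe gave -0.87. Psph, the last enzyme of serine synthesis, was named after its values were seen and read 484, 395 and 795. It lay at -0.22 (1SA) and 0.58 (2SA) relative to WT. Among 10 other amino acid enzymes the medians were -0.03 and -0.09, and the widest range was that of glutamine synthetase, Glul, at 9553, 12358 and 9801.

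Amino acid transporters had medians of 0.11 in 1SA, -0.06 in 2SA and -0.31 in 2SA against 1SA over 12 genes. Slc38a2, a neutral amino acid carrier induced by amino acid shortage, was highest in 1SA, at 1773 (WT), 2763 (1SA) and 2305 (2SA), with differences of 0.72 and 0.24. The cystine transporter Slc7a11 was not well above background on any array. The 12 measured genes for aminoacyl-tRNA synthetases and a tRNA exporter had medians close to WT, at 0.0008 and 0.05. None was 1.5-fold apart in any comparison (7.75%, 6.8% and 11.6% of all genes). The widest range there was that of Wars, at 3284, 2687 and 3988. Yars, named after its values were seen, was well above background on 2SA only, at 26.4. Its bounds put 2SA at least 1.54-fold above WT and at least 1.63-fold above 1SA.

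Secreted and other ATF4 targets had medians of -0.04 and -0.09 over 9 measured genes. Of these, 6 were below WT in 2SA, where the median of all genes was also below WT (-0.03). Vldlr, a lipoprotein receptor, was lower in both mutants (-0.76 and -0.87), from 146 on WT to 81.9 on 1SA and 87.8 on 2SA. Gdf15, a secreted stress hormone, read 819, 754 and 1415, a difference of 0.65 in 2SA and -0.04 in 1SA. Fgf21 read 7.10, 2.25 and 27.8 and was well above background on 2SA only, at least 2.02-fold above WT and at least 2.34-fold above 1SA. Stc2 was likewise measured on 2SA only, at 25.3, at least 1.84-fold above WT. Over the whole array, more probes were measured on 2SA (30755) than on 1SA (29680) or WT (28944). The share of all probes measured on 2SA only was not counted. Gdf15, Fgf21 and Stc2 were named after their values were seen.

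The lists for the endoplasmic reticulum and mitochondrial arms of the stress response had medians near WT. The 13 genes for ER chaperones and ER stress had medians of 0.01 and 0.05. None was 1.5-fold apart in any comparison (7.75%, 6.8% and 11.6% of all genes), which a list this short could show at such shares. The widest range was that of Manf, a secreted ER stress protein, at 2195, 2248 and 3179. The 7 mitochondrial chaperones and proteases had medians of -0.03 and -0.10, with the protease gene Htra2 apart from the rest at 0.60 in 2SA, by both of its probes. Other regulators of mTORC1 had medians of -0.005 and -0.04 over 10 genes, the widest range being that of the arginine sensor Castor1, dim at 55.5, 37.1 and 35.4.

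**Figure D3:**
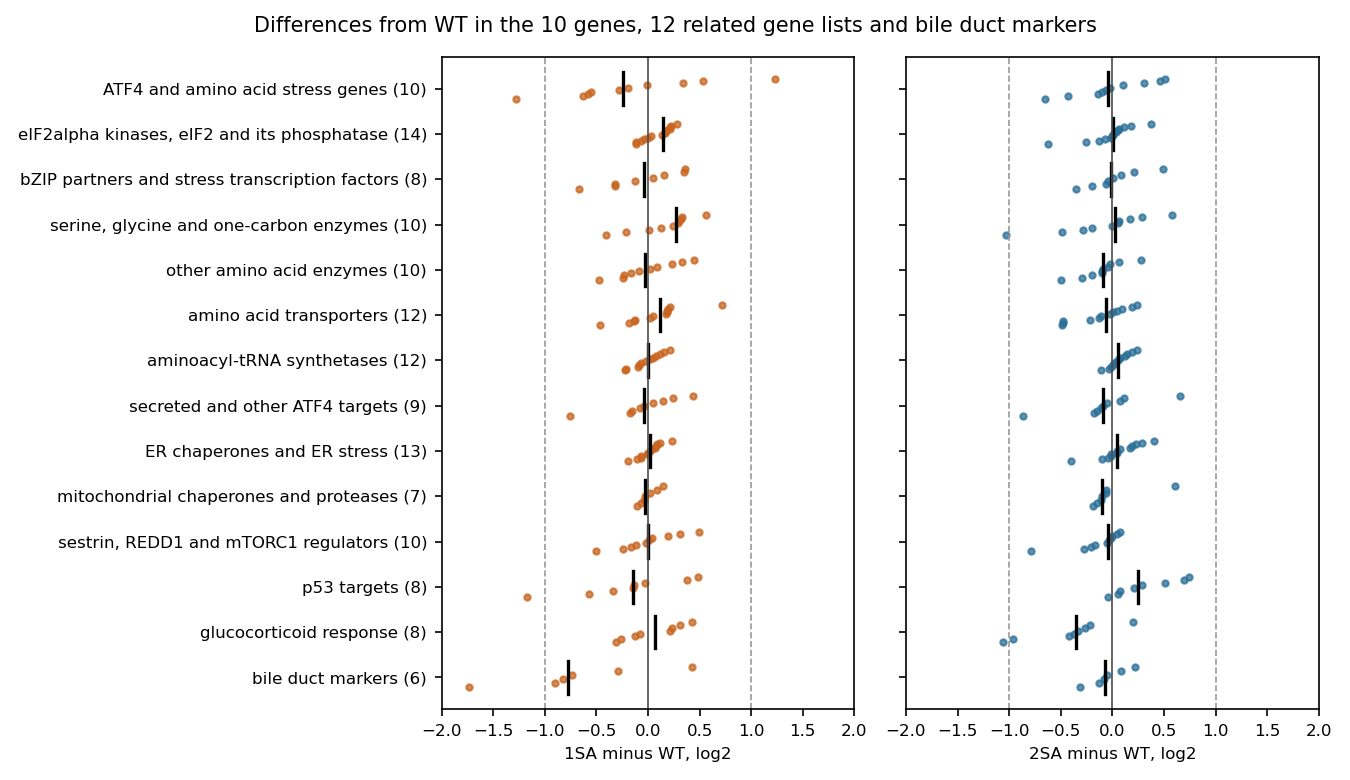
Differences of normalised log2 signal from WT (x axis) for 1SA on the left and 2SA on the right, for the 10 genes, 12 related lists and the bile duct markers (y axis, number of measured genes in brackets). Each point is 1 gene by its brightest measured probe, black bars are list medians and dashed lines mark 2-fold. The spread of the 10 genes in 1SA, from -1.28 to 1.23, is wider than that of the tRNA synthetases or ER chaperones, and the bile duct markers have a median of -0.78 there.

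Some of the 10 genes also answer to other signals, and those lists were read beside them. Sesn2 is also a target of p53, whose 8 listed targets had medians of -0.14 in 1SA and 0.25 in 2SA. Cdkn1a, which encodes the cell cycle inhibitor p21, was lower than WT in 1SA (-1.18) and higher in 2SA (0.51), at 463, 194 and 726. Its other measured probe gave -0.89 and 1.12. Phlda3 followed the same order, at 739, 472 and 1316. Ddit4 also responds to glucocorticoids. The 8 glucocorticoid response genes had a median of 0.07 in 1SA, -0.35 in 2SA and -0.61 in 2SA against 1SA, beside 0.53, -0.43 and -0.96 for Ddit4. Mt1, a metallothionein, read 93829 (WT), 104782 (1SA) and 49374 (2SA) (-1.06 in 2SA). The part of either signal in the values of these genes was not tested.

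Nupr1, Atf5, Psat1, Trib3 and Phgdh were lowest in 1SA, as were 34.4% of all genes, and so were most bile duct markers. Of the 6 bile duct markers, 5 were lower in 1SA than in WT, where the median of all genes was -0.002. Of those 5, 4 were lower by over 1.5-fold (4.67% of all genes). Spp1 read 3536 (WT), 1009 (1SA) and 3132 (2SA) (-1.73 in 1SA). Krt19 was at 134, 71.9 and 140 (-0.82), Krt7 (-0.73) and Epcam (-0.90) were dim, and the exception was Cftr, at 14.4 on WT and 18.5 on 1SA. Their summed level, in units of the array's 75th percentile, was 13.2 (WT), 4.37 (1SA) and 10.9 (2SA), most of it Spp1. No marker was at 0. The part of biliary cells in the values of these 5 genes was not tested. Of 7 measured Kupffer cell and macrophage markers, 5 were below WT and 2 above it in 1SA and 7 were below it in 2SA. Their medians were -0.36 and -0.90, beside -0.002 and -0.03 for all genes. Among these markers Adgre1 was also lowest in 1SA (-0.49 and -0.16, by its other probe -0.38 and 0.14). Csf1r was too, by little (-0.05 and -0.006). The remaining measured markers, Clec4f, Timd4, Vsig4, Cd5l and Marco, were lowest in 2SA. The 4 measured red blood cell genes were above WT in both mutants (0.67 and 0.27), with the 5 measured lymphocyte markers at 0.03 and 0.03. Over 6 measured stellate cell and fibroblast markers the medians were -0.12 and -0.59, with 4 below WT in 1SA and 6 in 2SA. The 7 sinusoidal endothelial markers had medians of -0.05 and -0.12. For 5 measured neutrophil and monocyte markers they were 0.22 and 0.13, with 1 marker at least 2-fold above WT in 1SA (0.727% of all genes). The part of these cells was not tested either.

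**Figure D4:**
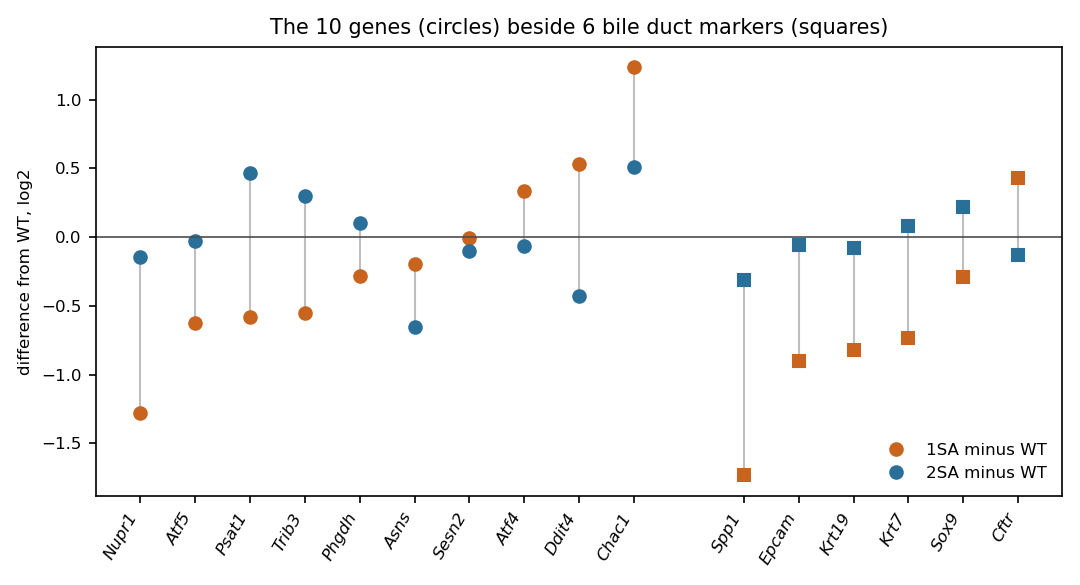
Difference of normalised log2 signal from WT (y axis) for 1SA and 2SA, in the 10 genes (circles) and the 6 bile duct markers (squares), each sorted by the 1SA difference along the x axis. Grey lines join the values of 1 gene, each from 1 array per group. Nupr1 (-1.28 in 1SA and -0.14 in 2SA, the latter within its spot limit) and Spp1 (-1.73 and -0.31) were both lowest in 1SA.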

How the data were processed

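Cy3-labelled cRNA from 3 livers was hybridised to SurePrint G3 mouse arrays, all on 1 slide and scanned on 1 day. The authors extracted spots with Agilent Feature Extraction 10.10.1.1, and the deposited intensity is background-subtracted and detrended within each array, not scaled between arrays. The design was placed on mm9 per the file headers. The authors' series matrix holds that intensity times 1 constant per array (3.02, 3.08 and 2.81), of unstated source, in linear units, and served as an alternative. Its column medians were 61.8, 58.4 and 62.3.

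Outlier spots were dropped (148 to 182 per array) and none was saturated. The log2 intensity, averaged over spots, less the 75th percentile of that array on the same scale gave normalised values. A probe counted as measured when at least 50% of its spots were well above background. Accessions were matched to RefSeq symbols (GRCm38.p6), which named 26727 of 55593 probes, and each gene took the values of the brightest of its probes measured throughout (13626 genes). For a probe measured on 1 side only, a lower bound was taken against the dim value or that array's detection floor (its lowest measured signal), whichever was higher. Spot error came from probes with at least 5 spots. With 1 array per group no test was run, and the number of arrays limits the precision. The steps were tested on simulated data.

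The members, lists and motif were chosen with earlier results of these data known. Named genes were all 10 members and, per list, genes 2-fold apart in any comparison or else the gene of widest range. Cell type lists were given by medians, some also by counts, with markers named beside members. Ddit3, Psph, Slc7a11, Yars, Gdf15, Fgf21 and Stc2 lie outside this rule and were chosen after their values were seen. With 3 arrays, no search was made for genes whose pattern resembled that of a member. Software was numpy 2.4.6, pandas 2.3.3 and matplotlib 3.10.9 under Python 3.11.15, and R 4.3.3 with limma 3.58.1 (normexp, offset 50, on median signals, since no mean signal was in the files used here).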

Additional observations from a re-analysis of the deposited data

Results flagged for a closer look

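Trib3, Psat1 and Ddit4 lay on opposite sides of WT in the mutants, each by more than the limit from repeated spots. For Trib3 the difference was -0.55 (1SA) and 0.30 (2SA). For Psat1 it was -0.58 and 0.46, and for Ddit4 0.53 and -0.43. Whether the mutants differed was not tested, as each was 1 array.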

How the results depend on the processing

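No paired analysis was possible because no result comes from a test, and a slide block could not be fitted with 1 array a group. Of 234 member differences recomputed under 8 alternatives, 213 moved by less than the SD of a difference between repeated spots at their signal. The other 21 moved further, and no difference beyond its spot limit changed sign. Of the 21, 15 were with normexp, and the cause was not tested. Normexp left no member 2-fold apart, with 0 in place of 1 higher and 1 lower in 1SA against WT and 0 in place of 2 higher in 2SA against 1SA, where Chac1 was at 0.98 and Nupr1 at -0.91 against WT in 1SA. At 3-fold these counts were 0, 0 and 0. At 1.5-fold they were 2 lower in 1SA against WT, 1 lower in 2SA against WT, and 4 higher and 2 lower in 2SA against 1SA. The stricter filter dropped Psat1 and Phgdh by construction and left 1 gene higher in 2SA against 1SA. The member median in 1SA against WT was -0.10 with the stricter filter and -0.37 with the mean of measured probes, and in 2SA against 1SA 0.0268 with normexp and -0.25 with the stricter filter. With the mean of its probes, Phgdh was at -0.59 against WT in 1SA and at -0.22 in 2SA, where its brighter probe alone gave 0.11. Psat1 was at 0.55 between the mutants with normexp. Between 6 and 8 of the 36 companion list medians lay over 0.20 from 0, against 7 in the report. The 7 letters TGATGCA gave 2 genes in place of 4. Over all genes, the share past 2-fold in the 3 comparisons was 1.86%, 1.67% and 3.6%, with normexp 0.712%, 0.638% and 1.5%, without the filter on dim probes 6.62%, 6.45% and 7.52%, and with the stricter filter 1.15%, 0.945% and 2.45%. The share of higher genes among those past 2-fold in 1SA against WT was 39.0%, and 51.5% with normexp. Without the filter on dim probes that share was 44.7% in place of 67.4% in 2SA against WT and 55.1% in place of 68.8% in 2SA against 1SA. No scaling moved the median of all genes by over 0.1.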
